A study of Mus musculus with 12 samples.

Results

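The mRNAs of 10 chemokines that tubule cells are known to be able to make were followed: Ccl2, Ccl7, Ccl20, Cxcl1, Cxcl2, Cxcl5, Cxcl10, Cxcl12, Cxcl16 and Cx3cl1. The set was given by name and not chosen from a ranking of these data, but earlier results of these data were known by then. All 10 were found among the 25514 genes matched in the files, and each was represented by its transcript with the highest total count. RNA was sequenced from 12 libraries of cultured proximal tubule (PT) cells, 3 in each of 4 groups. The groups were untreated TβRII flox/flox PT cells (genotype label H2ts6;Tgfbr2fl/fl), untreated TβRII-/- PT cells (H2ts6;Tgfbr2-/-), and the same genotypes after H2O2 in serum-free medium for 24 h. Untreated cells stayed in culture medium with 2.5% serum. The labels give the H2O2 dose as 200 mM, and the study's methods give the same number in μM.

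All 4 groups share the H2ts6 transgene, a temperature-sensitive T antigen that lets the cells divide at 33 °C. They had also been grown in a medium with interferon gamma, hydrocortisone and insulin, and were moved to 37 °C 5 days before the experiment. By the methods, interferon gamma was withdrawn at that step and the cells came from male mice. TβRII-/- PT cells were made from TβRII flox/flox PT cells by adenoviral Cre in culture, so the loss of TβRII and the difference between 2 cell lines cannot be told apart. H2O2 and the removal of serum cannot be told apart either. Tgfbr2, which encodes TβRII, was still counted in the libraries labelled TβRII-/- (6485 to 6895 counts untreated, against 7032 to 8791 in TβRII flox/flox, and 7156 to 9299 against 11960 to 13474 with H2O2). It was thus lower, without overlap, in the libraries labelled TβRII-/- in both media. The floxed exon alone was not measured here, so this is only a partial check of the labels, and the methods name immunoblotting as a further check, not analysed here. The labels do not say whether the 3 libraries of a group came from separate cultures, and the methods state in general that in vitro work used independent experiments or biological replicates. P-values here measure the spread between these libraries, which may be technical.

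Chemokines are small secreted proteins that guide leukocytes along a gradient through G protein-coupled receptors. They are classed by the spacing of their first cysteines as CC, CXC or CX3C. Cxcl1, Cxcl2 and Cxcl5 carry the ELR motif and draw neutrophils through Cxcr2, Ccl2 and Ccl7 draw monocytes through Ccr2, and Ccl20 acts through Ccr6. Cxcl10 is an interferon-induced ligand of Cxcr3 on T cells, and Cxcl12 acts through Cxcr4 and is scavenged by Ackr3. Cxcl16 and Cx3cl1 (fractalkine) are made as membrane-bound proteins that proteases of the ADAM family release. In the kidney, injured tubules are a known source of several of these ligands.

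The genes lie on GRCm38.p6 chromosome 5 (Cxcl5, Cxcl1, Cxcl2 and Cxcl10), chromosome 11 (Cxcl16, Ccl2 and Ccl7), chromosome 1 (Ccl20), chromosome 6 (Cxcl12) and chromosome 8 (Cx3cl1). RefSeq promoter windows were given for 6 of the 10 (Ccl20, Cxcl1, Cxcl2, Cxcl10, Cxcl12 and Cx3cl1), and the 250 bases before each start were searched on both strands for 7 motifs. The kappaB motif, the letters bound by NF-kB, matched in 4 of these 6 windows, against 7.25% of 32851 promoters of the same length. The 4 matching windows are shown because they belong to members whose counts moved in opposite directions below. Each line gives the last 120 bases before the start, 5′ to 3′ on the gene's strand, with kappaB matches in capitals.
Cxcl1, chr5:90891125-90891244, plus strand: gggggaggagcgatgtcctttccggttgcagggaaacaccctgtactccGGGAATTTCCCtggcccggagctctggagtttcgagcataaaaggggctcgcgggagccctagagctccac
Cxcl2, chr5:90903779-90903898, plus strand: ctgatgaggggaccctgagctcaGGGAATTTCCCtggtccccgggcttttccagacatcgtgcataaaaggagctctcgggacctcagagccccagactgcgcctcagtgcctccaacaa
Ccl20, chr1:83116646-83116765, plus strand: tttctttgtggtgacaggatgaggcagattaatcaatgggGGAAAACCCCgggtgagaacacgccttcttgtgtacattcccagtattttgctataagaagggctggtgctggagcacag
Cxcl10, chr5:92348890-92349009, minus strand: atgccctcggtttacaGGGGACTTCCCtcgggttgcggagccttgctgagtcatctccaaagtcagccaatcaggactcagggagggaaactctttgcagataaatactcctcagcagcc

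Cxcl1 and Cxcl2 carried the same capital letters, at positions -71 to -61 and -97 to -87 from the start. Both strands of that stretch matched, so the matches overlap. Cxcl10 also had a kappaB match farther from the start, a match to the interferon-stimulated response element (2.98% of all promoters) at -213 to -204, and TGANTCA (6.75%), which overlapped the match to TGACNNNGC (10.2%). Cx3cl1 had TATAAA (12.4%) and Cxcl1 had ACGTG (16.6%). TTGCNNAA (9.56% of all) matched in none of the 6, and Cxcl12 matched none of the 7 motifs. A match describes letters only.

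Per kb of the representative transcript, the TβRII flox/flox and TβRII-/- PT cells were led by different chemokines. For Ccl2, Cxcl1 and Cxcl10 that transcript keeps an intron (1096, 1871 and 2230 bases). Their protein-coding transcripts have 813, 959 and 1101 bases and held most of the same counts. The order and ratios below use the representative lengths and depend on them. On the coding transcripts, untreated TβRII flox/flox libraries had 734, 614 and 575 counts of Cxcl10 and 403, 379 and 362 of Ccl2. Per kb of these, Cxcl10 came before Ccl2. In untreated TβRII flox/flox PT cells the order began with Ccl2 at 383 ± 15.5 normalized counts per kb (SD, n = 3), followed by Cxcl10 at 315 ± 33.4, Cxcl1 at 174 ± 16.5, Cx3cl1 at 99.2 ± 10.9 and Cxcl16 at 21.9 ± 4.76. No neighbours overlapped among these 5. In untreated TβRII-/- PT cells Cxcl1 led at 464 ± 4.77 per kb. Cxcl16 (152 ± 8.68), Ccl2 (142 ± 15.3), Cxcl10 (139 ± 19.1) and Cx3cl1 (124 ± 9.29) came next, and their libraries overlapped from each to the next.

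With H2O2, Ccl2 led in TβRII flox/flox PT cells at 744 ± 51.2 per kb, ahead of Cxcl10 (285 ± 10.6) and Cx3cl1 (275 ± 17.5), which overlapped. In TβRII-/- PT cells with H2O2, Cxcl1 (313 ± 3.11) stood above Ccl2 (263 ± 1.91), and Cx3cl1 (189 ± 15.3) and Cxcl16 (182 ± 5.54) overlapped behind them. On the same representative lengths, the ratio of Cxcl1 to Ccl2 per kb was 0.428 to 0.481 in untreated TβRII flox/flox libraries. It was 2.95 to 3.73 in untreated TβRII-/- libraries. With H2O2 it was 0.106 to 0.111 and 1.18 to 1.21. Cxcl2, Cxcl12 and Ccl7 were near the bottom in every group.

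**Figure D1:**
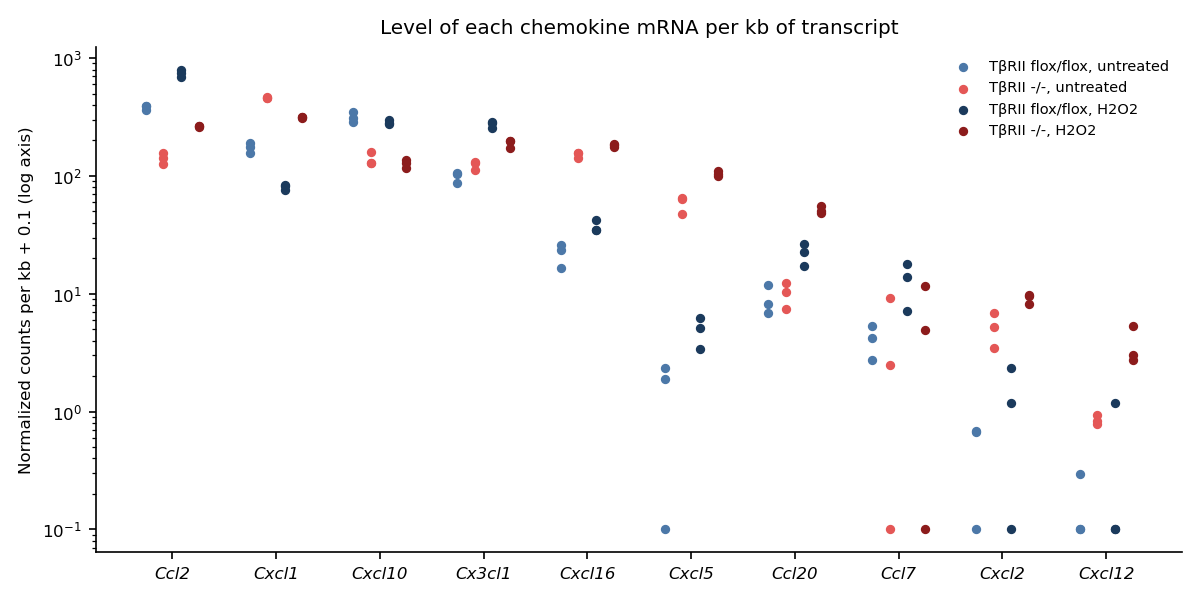
Level of each of the 10 chemokine mRNAs in normalized counts per kb of the representative transcript, plus 0.1, on a log axis. Each point is a library and colours mark the 4 groups. On these lengths Ccl2 is highest in TβRII flox/flox PT cells and Cxcl1 in TβRII-/- PT cells. Points at 0.1 are libraries with 0 counts.

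Of the 10 genes, 9 passed the filter on low counts; Ccl7 did not. Calls below were made at a Benjamini-Hochberg adjusted p of 0.05 and a fold change of 1.5 in edgeR's quasi-likelihood test. Between untreated genotypes, 5 of the 9 were called higher and 2 lower in TβRII-/- PT cells. The 5 include Cxcl2, Cxcl5 and Cxcl12. Cxcl2 and Cxcl12 passed the filter on all 4 groups through the TβRII-/- libraries with H2O2. In those libraries they had 15 to 23 and 18 to 30 counts. Cxcl5 passed it through the TβRII-/- libraries, with 84 to 124 counts untreated and 196 to 261 with H2O2. In TβRII flox/flox libraries it had at most 4 and 10. The calls of Cxcl2, Cxcl5 and Cxcl12 between genotypes, in either medium, are thus not independent of the filter. Nor are the numbers of members called that include them. The lowest number called between untreated genotypes under the alternatives was 5. Of all 12971 genes tested, 28.0% were called, 16.3% higher and 11.8% lower. With H2O2, 6 members were called higher and 2 lower, where 30.7% of all genes were called, 17.3% higher and 13.4% lower. The median log2 fold change of the 9 was 1.42 untreated and 1.96 with H2O2, beside 0.01 and 0.02 over all genes. The groups' libraries did not overlap for 8 of the 9 untreated and for 9 with H2O2, while this held for 65.3% and 71.0% of all genes. Between genotypes, much of the transcriptome thus passed the same limits.

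With H2O2, 5 members were called higher and 1 lower in TβRII flox/flox PT cells, where 8.24% of all genes were called, 5.68% higher and 2.56% lower. These 5 include Cxcl5, which passed the filter only through the TβRII-/- libraries. In TβRII-/- PT cells 5 were called higher and none lower, where 8.33% of all genes were called, 4.56% higher and 3.76% lower. The latter 5 include Cxcl12, which passed the filter through the TβRII-/- libraries with H2O2, so its call is not independent of the filter. The median log2 fold changes of the 9 were 1.30 and 0.82, beside 0.01 and 0.02 over all genes. The groups did not overlap for 6 and 8 of the 9, which held for 47.4% and 52.1% of all genes. The H2O2 effects of the genotypes differed (interaction, adjusted p under 0.05) for 2 of the 9, Cxcl1 and Cx3cl1, where 10.2% of all genes passed, 3.90% with a higher and 6.28% with a lower change in TβRII-/- PT cells. At the study's limits, an unadjusted p of 0.01 and a fold of 1.5, the interaction was called for Cx3cl1 alone, against 2.75% of all genes.

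**Figure D2:**
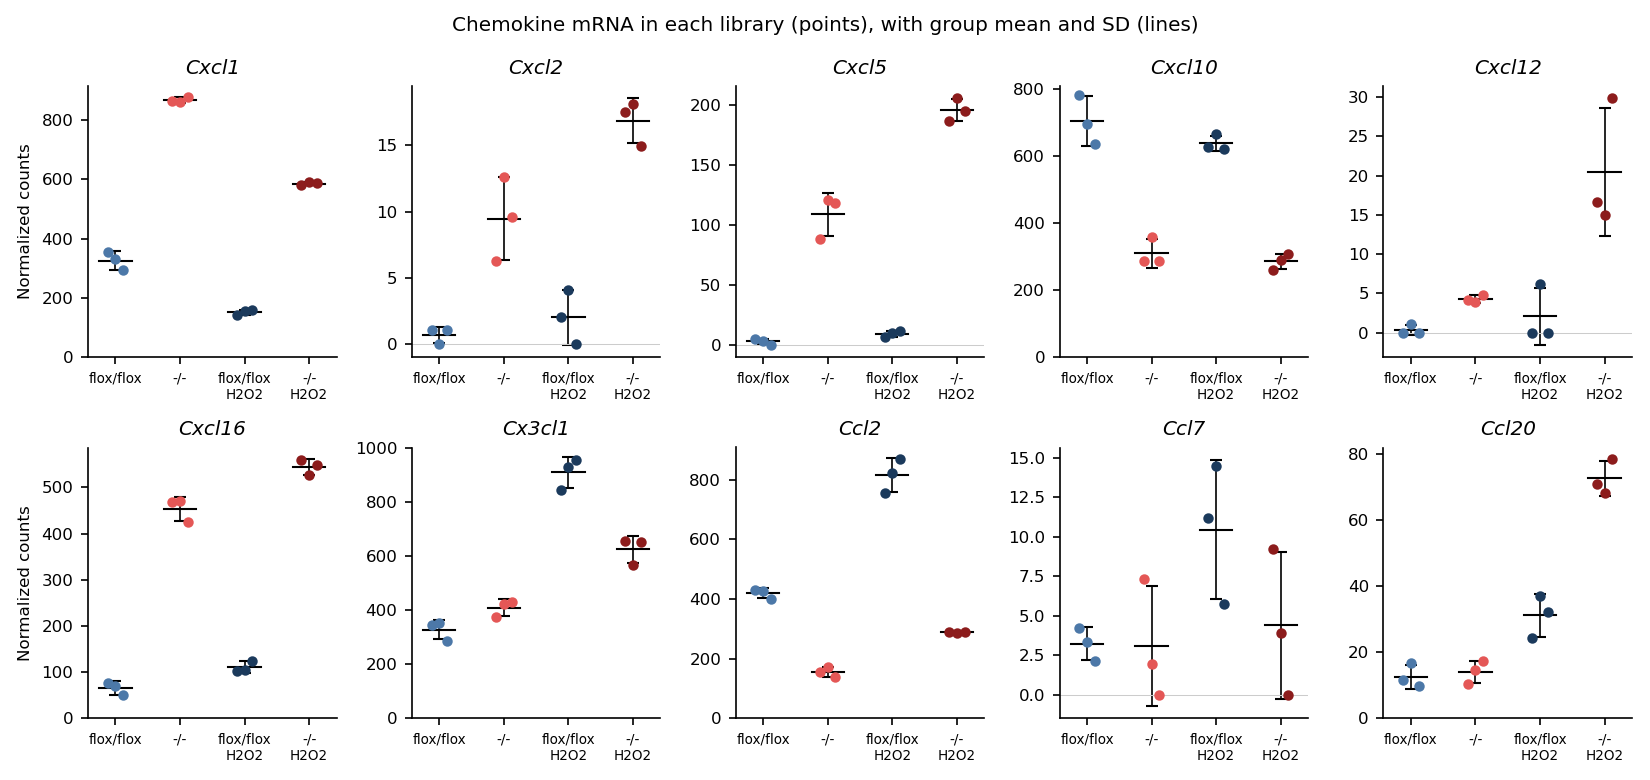
Normalized counts of the 10 chemokine genes in each of the 12 libraries (points), with the mean (horizontal line) and SD (vertical bar) of the 3 libraries of each group; each panel has its own linear axis. Cxcl1, Cxcl2, Cxcl5, Cxcl12 and Cxcl16 are higher and Ccl2 and Cxcl10 lower in TβRII-/- PT cells.

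The neutrophil-attracting ELR chemokines were higher in TβRII-/- PT cells in both media. Normalized counts of Cxcl1 were 353, 330 and 293 in untreated TβRII flox/flox libraries, 866, 862 and 879 in untreated TβRII-/- libraries, 141, 155 and 157 in TβRII flox/flox libraries with H2O2, and 580, 591 and 587 in TβRII-/- libraries with H2O2. No groups overlapped. Cxcl1 was 2.67-fold higher in TβRII-/- PT cells untreated (log2 fold change 1.42, SE 0.08, edgeR adjusted p = 4.21e-17) and 3.88-fold higher with H2O2 (1.96, SE 0.09, adjusted p = 2.63e-19). It was the only member called lower with H2O2, and fell by 1.11 on the log2 scale in TβRII flox/flox PT cells (SE 0.09, edgeR adjusted p = 4.04e-11).

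In TβRII-/- PT cells the log2 change of Cxcl1 with H2O2 was -0.57 (SE 0.07, edgeR adjusted p = 8.99e-08), a 1.48-fold lower level that stayed under the fold limit. The difference between these H2O2 effects was 0.54 on the log2 scale (SE 0.12, edgeR interaction adjusted p = 0.00268).

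Cxcl5, also called LIX in the mouse, was close to absent in TβRII flox/flox PT cells. It had 4, 3 and 0 counts in the untreated TβRII flox/flox libraries, 84, 124 and 123 in untreated TβRII-/-, 6, 9 and 10 in TβRII flox/flox with H2O2, and 202, 261 and 196 in TβRII-/- with H2O2. Every TβRII-/- library was above every TβRII flox/flox library. The summed counts gave a ratio of 43.3 between untreated genotypes (exact 95% interval 20.8 to 109, counting error only) and 22.2 with H2O2 (14.9 to 34.5). The fitted log2 fold changes were 5.37 (edgeR adjusted p = 3.09e-15) and 4.45 (adjusted p = 4.05e-17).

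Cxcl5 rose with H2O2 in TβRII-/- PT cells by 0.85 on the log2 scale (SE 0.15, edgeR adjusted p = 3.31e-05). In TβRII flox/flox PT cells the change was 1.76 (SE 0.60, edgeR adjusted p = 0.0175). That call was lost without untreated TβRII flox/flox replicate 3 (edgeR adjusted p = 0.109) and without TβRII flox/flox H2O2 replicate 3 (0.0696), and the change was 2.36 without untreated TβRII flox/flox replicate 1. Cxcl5 was tested there only because the TβRII-/- libraries, which are not part of that comparison, carried it through the filter.

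Cxcl2 (MIP-2) was the least abundant of the ELR ligands. It had 1, 0 and 1 counts in untreated TβRII flox/flox, 6, 13 and 10 in untreated TβRII-/-, 2, 4 and 0 in TβRII flox/flox with H2O2, and 19, 23 and 15 in TβRII-/- with H2O2. The genotypes did not overlap in either medium. The ratio of summed counts was 13.3 untreated (exact 95% interval 3.36 to 115) and 7.99 with H2O2 (3.45 to 22.7), and the fitted log2 fold changes were 3.52 (edgeR adjusted p = 3.06e-04) and 2.93 (adjusted p = 3.07e-05). Without TβRII flox/flox H2O2 replicate 2 the latter was 3.803. Its changes with H2O2 did not pass, at 1.41 in TβRII flox/flox (edgeR adjusted p = 0.331) and 0.82 in TβRII-/- PT cells (0.101).

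The make-up of the ELR group differed between groups of libraries. The 3 representative transcripts have nearly the same length (1871, 1859 and 1863 bases), but those of Cxcl1 and Cxcl5 keep an intron. The protein-coding transcripts of Cxcl1 and Cxcl5 have 959 and 1575 bases. The shares below are thus shares of counts, not corrected for length. Cxcl1 made up 98.5% to 99.6% of their summed counts in untreated TβRII flox/flox libraries, and 86.7% to 90.2% in untreated TβRII-/- libraries. With H2O2 its share was 92.0% to 94.6% and 72.6% to 74.0%, the rest being mostly Cxcl5.

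Cxcl1, Cxcl2 and Cxcl5 sit in a cluster of CXC chemokine genes on chromosome 5, with starts 132 kb and 145 kb from that of Cxcl5 for Cxcl1 and Cxcl2. Ppbp, which encodes the precursor of the Cxcr2 ligand CXCL7 and starts 9.22 kb from Cxcl5, is no member of the set but showed the widest genotype difference among the ligands measured here. It had 10, 14 and 9 counts in untreated TβRII flox/flox and 1115, 1202 and 1128 in untreated TβRII-/- libraries. With H2O2 it had 11, 11 and 7 in TβRII flox/flox and 599, 738 and 624 in TβRII-/- libraries. The log2 fold change between genotypes was 6.57 untreated (SE 0.13, edgeR adjusted p = 2.02e-28) and 5.81 with H2O2 (SE 0.15, adjusted p = 5.81e-26).

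Within TβRII-/- PT cells Ppbp fell by 0.96 on the log2 scale with H2O2 (SE 0.07, edgeR adjusted p = 1.88e-12), while its neighbour Cxcl5 rose. Other genes of the cluster were at or near 0: Cxcl15 had no counts, Pf4 had at most 2 and Cxcl3 at most 7 in a library. The flanking genes, looked up after their values were seen, were Rassf6, called higher in TβRII-/- PT cells (log2 fold change 3.42 untreated, 3.83 with H2O2), and Mthfd2l (0.50, under the fold limit, and 0.69, called).

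**Figure D3:**
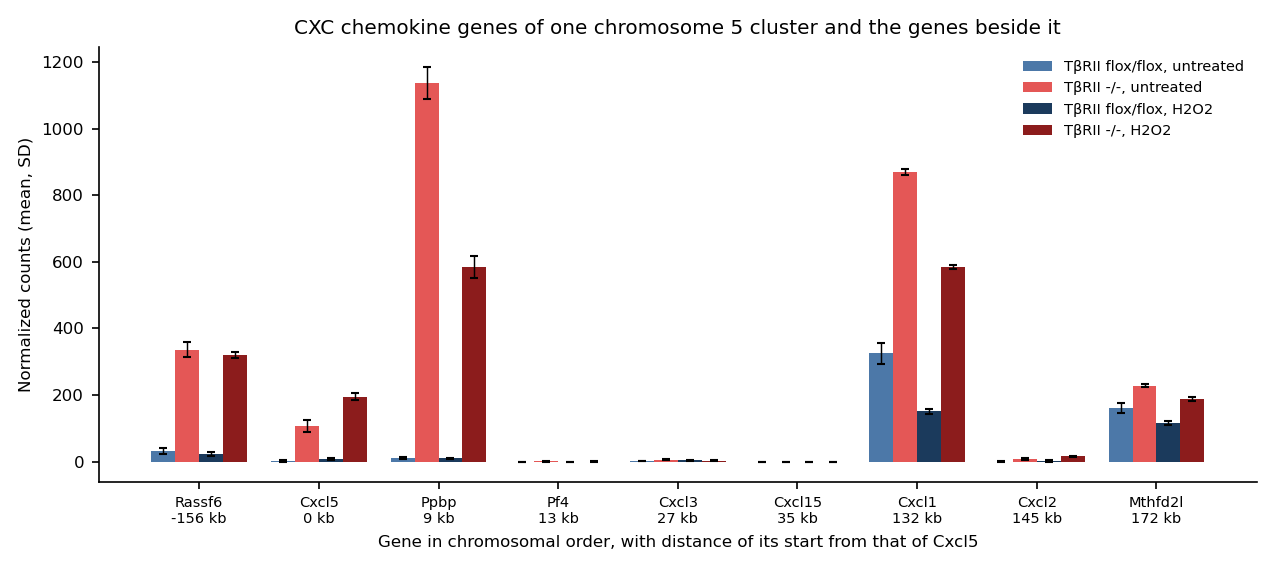
Mean normalized counts with SD (bars, n = 3 libraries) of the CXC chemokine genes of the chromosome 5 cluster and the gene on either side, in chromosomal order with the distance of each start from that of Cxcl5 in kb. Ppbp, Cxcl1 and Cxcl5 are higher in TβRII-/- PT cells and Pf4, Cxcl3 and Cxcl15 are at or near 0.

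The monocyte chemokine Ccl2 (MCP-1) showed the opposite genotype difference. Normalized counts were 430, 428 and 400 in untreated TβRII flox/flox, 157, 171 and 138 in untreated TβRII-/-, 757, 821 and 869 in TβRII flox/flox with H2O2, and 288, 286 and 290 in TβRII-/- with H2O2. The 4 groups did not overlap. Ccl2 was 2.70-fold lower in TβRII-/- PT cells untreated (log2 fold change -1.43, SE 0.09, edgeR adjusted p = 7.78e-15) and 2.83-fold lower with H2O2 (-1.50, SE 0.08, adjusted p = 3.13e-17).

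Ccl2 was higher with H2O2 in serum-free medium in both genotypes, 1.94-fold in TβRII flox/flox (log2 0.96, SE 0.08, edgeR adjusted p = 1.50e-11) and 1.85-fold in TβRII-/- PT cells (0.89, SE 0.10, adjusted p = 8.08e-09). The difference between these effects was -0.07 (SE 0.13, edgeR interaction adjusted p = 0.806). TβRII-/- PT cells with H2O2 stayed below untreated TβRII flox/flox PT cells in every library.

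Ccl7 (MCP-3), 10.1 kb from Ccl2 on chromosome 11, was counted 4, 3 and 2 times in untreated TβRII flox/flox, 7, 2 and 0 times in untreated TβRII-/-, 11, 14 and 5 times in TβRII flox/flox with H2O2, and 10, 5 and 0 times in TβRII-/- with H2O2. It failed the filter and was not tested in the fit. The ratio of summed counts with H2O2 against without was 3.28 in TβRII flox/flox PT cells (exact 95% interval 1.52 to 7.85), and that of TβRII-/- to TβRII flox/flox with H2O2 was 0.420 (0.210 to 0.806). These intervals leave out the spread between libraries, which was wide: both TβRII-/- groups included a library at 0. The other CC genes of that cluster, Ccl8, Ccl11 and Ccl12, had no counts in any library.

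Ccl20, the ligand of Ccr6, was low in untreated cells of both genotypes and rose with H2O2. Normalized counts were 11.6, 16.7 and 9.68 in untreated TβRII flox/flox, 10.5, 14.5 and 17.2 in untreated TβRII-/-, 24.3, 37.2 and 32.1 in TβRII flox/flox with H2O2, and 71.1, 68.4 and 78.6 in TβRII-/- with H2O2. The untreated groups overlapped (log2 fold change 0.17, SE 0.36, edgeR adjusted p = 0.697). With H2O2 they did not, and Ccl20 was 2.32-fold higher in TβRII-/- PT cells (1.22, SE 0.22, edgeR adjusted p = 1.34e-05).

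The rise of Ccl20 with H2O2 was 2.46-fold in TβRII flox/flox (log2 1.30, SE 0.31, edgeR adjusted p = 0.00106) and 5.08-fold in TβRII-/- PT cells (2.35, SE 0.25, adjusted p = 7.01e-09). The difference between these rises, 1.05 on the log2 scale with an SE of 0.43, did not pass (edgeR interaction adjusted p = 0.118). A genotype difference in the Ccl20 response was thus not shown.

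Cxcl10 (IP-10), the interferon-induced ligand of Cxcr3, was lower in TβRII-/- PT cells. Normalized counts were 782, 695 and 633 in untreated TβRII flox/flox, 284, 358 and 284 in untreated TβRII-/-, 627, 663 and 619 in TβRII flox/flox with H2O2, and 259, 288 and 306 in TβRII-/- with H2O2. The genotypes did not overlap, and the media did within each genotype. The log2 fold change between genotypes was -1.19 untreated (SE 0.09, edgeR adjusted p = 4.41e-13) and -1.16 with H2O2 (SE 0.09, adjusted p = 7.55e-13).

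With H2O2 the log2 change of Cxcl10 was -0.14 (SE 0.08, edgeR adjusted p = 0.176) in TβRII flox/flox and -0.12 (SE 0.10, adjusted p = 0.343) in TβRII-/- PT cells. Cxcl11, another interferon-induced Cxcr3 ligand, had the same direction between genotypes, at 119 ± 23.1 and 49.0 ± 14.0 normalized counts untreated (log2 fold change -1.27, edgeR adjusted p = 6.59e-07) and -0.89 with H2O2 (adjusted p = 9.13e-05). Cxcl9, the third Cxcr3 ligand, had no counts in any library.

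Cxcl12 (SDF-1), which retains stem cells and lymphocytes through Cxcr4, had the lowest mean per kb of the members in every group. It had 0, 1 and 0 counts in untreated TβRII flox/flox, 4, 4 and 5 in untreated TβRII-/-, 0, 6 and 0 in TβRII flox/flox with H2O2, and 18, 19 and 30 in TβRII-/- with H2O2. The genotypes did not overlap in either medium. The ratio of summed counts was 11.9 untreated (exact 95% interval 1.79 to 506) and 9.39 with H2O2 (4.095 to 26.5).

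For Cxcl12 the call between untreated genotypes (log2 fold change 3.18, edgeR adjusted p = 0.0240) was lost in several settings. The edgeR adjusted p was 0.0740 without TβRII flox/flox replicate 1, 0.0729 without TβRII flox/flox replicate 3, 0.0505 without TβRII-/- replicate 3 and 0.0832 on sums over transcripts, where the change was 2.35. The call was also lost at the study's limits, where 6 in place of 7 members were called between untreated genotypes. Without TβRII flox/flox replicate 2, the only one with a count on the representative transcript, the fitted change was 5.15. The call with H2O2 (3.17, edgeR adjusted p = 3.63e-05) and the rise with H2O2 in TβRII-/- PT cells (2.20, adjusted p = 0.00107; ratio of sums 4.65, 2.54 to 9.19) were kept in all of the settings run, but their size was not stable. In TβRII flox/flox PT cells all 6 counts with H2O2 came from replicate 2, and without it the fitted genotype change was 7.33, against a group at 0. Without replicate 1 it was 2.55, and the rise in TβRII-/- PT cells was 2.84 on sums over transcripts.

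The membrane-bound chemokine Cxcl16, a ligand of Cxcr6 and a scavenger receptor, was higher in TβRII-/- PT cells. Normalized counts were 76.8, 70.1 and 49.5 in untreated TβRII flox/flox, 468, 470 and 424 in untreated TβRII-/-, 103, 104 and 125 in TβRII flox/flox with H2O2, and 558, 526 and 548 in TβRII-/- with H2O2. None of the 4 groups overlapped. Cxcl16 was 6.92-fold higher in TβRII-/- PT cells untreated (log2 fold change 2.79, SE 0.12, edgeR adjusted p = 1.04e-19) and 4.92-fold higher with H2O2 (2.30, SE 0.11, adjusted p = 7.35e-19).

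With H2O2 Cxcl16 rose 1.69-fold in TβRII flox/flox PT cells (log2 0.75, SE 0.15, edgeR adjusted p = 1.29e-04). In TβRII-/- PT cells the log2 change was 0.26 (SE 0.09, edgeR adjusted p = 0.0161), under the fold limit. The difference, -0.49 (SE 0.17), had an edgeR interaction adjusted p of 0.0625, and passed without untreated TβRII flox/flox replicate 1 (-0.66, adjusted p = 0.0151) or TβRII flox/flox H2O2 replicate 1 (-0.57, 0.0493). Zmynd15 overlaps the Cxcl16 locus on the opposite strand and, looked up after its values were seen, was also called higher in TβRII-/- PT cells (1.65 and 2.30 on the log2 scale). It had 260 counts in all against 3695 for Cxcl16, and while the library kit keeps strand, whether counting used it is not given in the sources used here.

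Cx3cl1 (fractalkine), the other membrane-bound member, rose more with H2O2 in TβRII flox/flox than in TβRII-/- PT cells. Normalized counts were 345, 354 and 287 in untreated TβRII flox/flox, 374, 424 and 431 in untreated TβRII-/-, 845, 929 and 957 in TβRII flox/flox with H2O2, and 657, 567 and 652 in TβRII-/- with H2O2. The TβRII-/- libraries were above the TβRII flox/flox libraries untreated and below them with H2O2. The genotype log2 fold changes were 0.32 untreated (SE 0.09, edgeR adjusted p = 0.00287) and -0.54 with H2O2 (SE 0.08, adjusted p = 3.31e-07), both under the fold limit. The latter passed it without TβRII flox/flox H2O2 replicate 1 (-0.63).

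Cx3cl1 was higher with H2O2 in serum-free medium, 2.77-fold in TβRII flox/flox PT cells (log2 1.47, SE 0.09, edgeR adjusted p = 4.42e-15) and 1.52-fold in TβRII-/- PT cells (0.61, SE 0.08, adjusted p = 7.67e-07). The difference between these rises was -0.86 on the log2 scale (SE 0.12, edgeR interaction adjusted p = 9.04e-06). The rise in TβRII-/- PT cells lay just past the fold limit, and fell under it without untreated TβRII-/- replicate 1 (0.55) or without TβRII-/- H2O2 replicate 1 (0.57) or 3 (0.57).

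**Figure D4:**
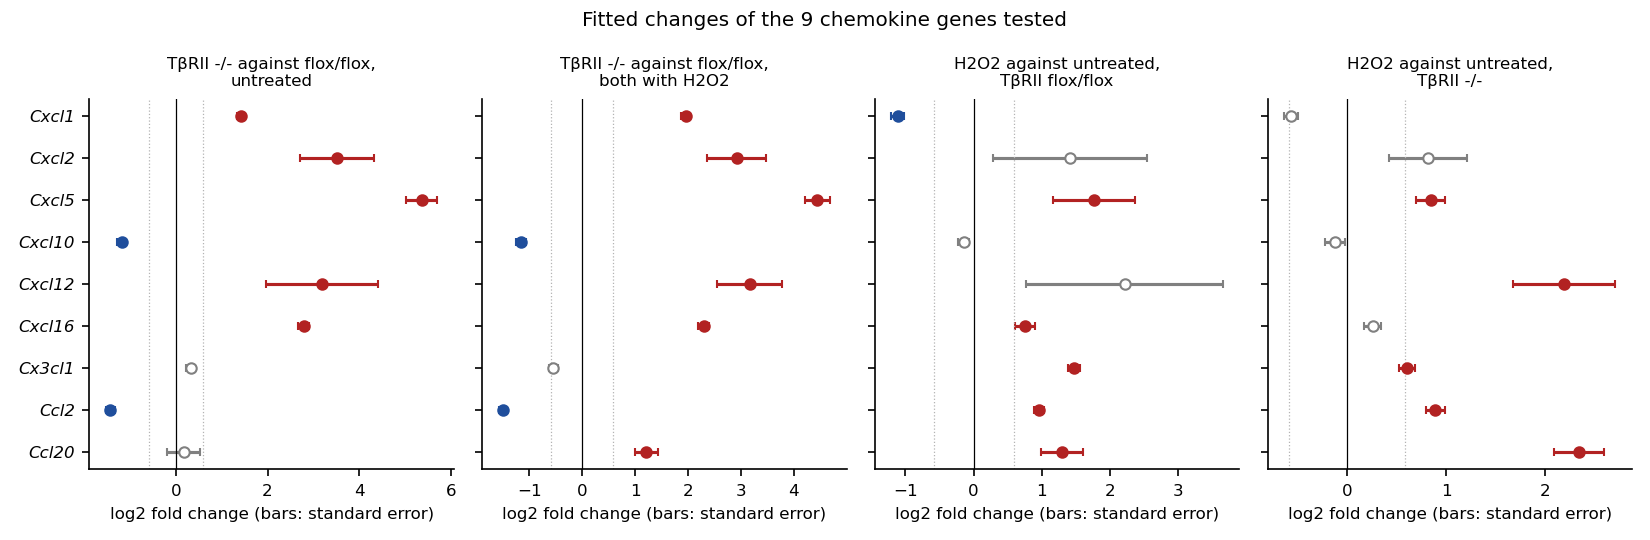
Fitted log2 fold changes (points) with standard errors (bars) of the 9 chemokine genes tested, in the 4 comparisons of 2 groups; dotted lines mark a fold change of 1.5, filled points are calls (red higher, blue lower) and open points are not called. The axes differ in range between panels. Cxcl1 is the only gene whose change with H2O2 is below the lower dotted line, in TβRII flox/flox PT cells.

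Ccl17, a CC chemokine whose start lies 37.2 kb from that of Cx3cl1, changed in opposite directions with H2O2. Its normalized counts were 223 ± 30.8 in untreated TβRII flox/flox, 177 ± 16.3 in untreated TβRII-/-, 341 ± 16 in TβRII flox/flox with H2O2 and 80.3 ± 13.6 in TβRII-/- with H2O2. It rose by 0.62 on the log2 scale in TβRII flox/flox PT cells (edgeR adjusted p = 4.35e-05), a change that fell under the fold limit without untreated TβRII flox/flox replicate 1 (0.53), and fell by 1.13 in TβRII-/- PT cells (adjusted p = 5.41e-08). The difference was -1.75 (SE 0.18, edgeR interaction adjusted p = 4.32e-08). Of the 26 other ligands looked at, 15 had no counts in any library and 6 were tested. Of these 6, 2 were called higher (Ppbp and Cxcl14) and 1 lower (Cxcl11) in untreated TβRII-/- PT cells. In that comparison 16.3% of all genes were called higher and 11.8% lower. Cxcl14, named after its values were seen, had 1.07 ± 1.05 and 31.9 ± 4.27 normalized counts untreated. It passed the filter through the TβRII-/- libraries, with at most 3 counts in a TβRII flox/flox library. Its call is thus not independent of the filter.

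The receptors through which the members act were hardly counted. Of 23 chemokine receptors, 12 had no counts in any library, among them Ccr2, Cxcr3 and Cxcr6. Cxcr2 had at most 1 count in a library, Cxcr4 and Cx3cr1 at most 2, and Ccr6 had 3 to 5 in TβRII-/- and 0 in TβRII flox/flox libraries. The 1 receptor tested was Ackr3, which binds Cxcl12 and Cxcl11. Its normalized counts were 55.7 ± 13.5 in TβRII flox/flox and 181 ± 10.9 in TβRII-/- PT cells untreated (1.70 on the log2 scale, edgeR adjusted p = 3.95e-11), and 84.0 ± 4.30 and 231 ± 35.4 with H2O2 (1.45, adjusted p = 9.78e-11).

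Of 9 genes for proteases and regulators that release or clip chemokines, 8 were tested, and 5 were called lower in TβRII-/- PT cells untreated and 6 with H2O2, where 11.8% and 13.4% of all genes were. None was called higher. Mmp9, among those called lower in both media, passed the filter through the TβRII flox/flox libraries, with at most 9 counts in a TβRII-/- library. Its calls are thus not independent of the filter. Adam10, the protease that sheds Cxcl16 and Cx3cl1 in resting cells, differed by -0.61 on the log2 scale untreated (edgeR adjusted p = 1.92e-10) and by -0.77 with H2O2 (adjusted p = 6.55e-13). The untreated call of Adam10 fell under the fold limit without TβRII flox/flox replicate 1 (-0.58) or TβRII-/- replicate 3 (-0.58). Mmp2, a gelatinase that clips several chemokines, differed by -4.12 untreated (edgeR adjusted p = 4.01e-28) and -4.37 with H2O2 (adjusted p = 1.22e-28). Timp3, an inhibitor of these proteases, differed by -0.63 with H2O2 (edgeR adjusted p = 8.75e-10). Adam17, the inducible sheddase, was not called in any comparison.

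Of 32 genes of the NF-kB pathway and its feedback, 27 were tested; 1 was called higher and 7 lower in untreated TβRII-/- PT cells, and 1 higher and 8 lower with H2O2. The calls in either direction made up a share near that of all genes (28.0% and 30.7%), but they were mostly lower. Of all genes, 16.3% and 17.3% were called higher and 11.8% and 13.4% lower. Nfkb1, an NF-kB subunit, differed by -0.93 untreated and -0.92 with H2O2 (edgeR adjusted p = 2.89e-15 and 4.33e-15), and Nfkbiz, a nuclear cofactor, by -1.12 and -1.17 (5.64e-16 and 1.05e-16). Il17ra, a receptor chain whose ligand induces ELR chemokines, differed by -0.76 with H2O2 (edgeR adjusted p = 1.28e-10). With H2O2, 3 of the 27 were called higher in TβRII flox/flox and 5 in TβRII-/- PT cells, and none lower. In the same order, 5.68% and 4.56% of all genes were called higher and 2.56% and 3.76% lower. Tnf, Il1b and Il6 had no counts in any library.

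All 20 genes of the interferon pathway list were tested; 3 were called higher and 5 lower in TβRII-/- PT cells, both untreated and with H2O2. Of all genes, 16.3% and 17.3% were called higher and 11.8% and 13.4% lower. Ifnar1, a chain of the type I interferon receptor, differed by -0.84 untreated (edgeR adjusted p = 2.04e-13) and -1.11 with H2O2 (adjusted p = 1.68e-16), and Ifngr2, a chain of the interferon gamma receptor, by -0.88 with H2O2 (adjusted p = 2.18e-14). Ifit3, an interferon-induced gene, went the other way, at 0.92 and 1.18 (edgeR adjusted p = 7.43e-14 and 2.26e-16). Irf1, a transcription factor for Cxcl10, was not called in any comparison.

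Chemokine mRNAs are short-lived. Of 10 genes for proteins that control such decay, none was called between untreated genotypes, where 28.0% of all genes were. Zfp36l1, which binds AU-rich mRNAs, was higher in TβRII-/- PT cells with H2O2 (log2 fold change 0.65, edgeR adjusted p = 3.62e-11). Zfp36l2, of the same family, fell with H2O2 in both genotypes (-0.60, edgeR adjusted p = 2.23e-06, and -0.66, 6.99e-07); each of these calls dropped under the fold limit in some fits without a library, with changes down to -0.52 and -0.47.

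By correlation of log2 counts over the 12 libraries, in which 4 groups of 3 shared line and medium, the protein-coding gene most like each member was Ccnd1 for Cxcl1 (r = 0.99), Tmie for Cxcl2 (0.98), Vldlr for Cxcl5 (0.995), Ist1 for Cxcl10 (0.99), Ciita for Cxcl12 (0.95), Gpr137b for Cxcl16 (0.997), Msmo1 for Cx3cl1 (0.99), Gas1 for Ccl2 (0.99) and Kifc2 for Ccl20 (0.97). The number of genes with r above 0.95 was 2 for Cxcl12, 8 for Ccl20, 33 for Cx3cl1 and between 116 and 826 for the other 6. Among the members themselves, Cxcl5 and Cxcl16 were most alike (r = 0.99) and Cxcl1 and Ccl2 most opposed (r = -0.98).

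The deposited counts were per transcript, and for Ccl2, Cxcl1, Cxcl5 and Cxcl10 the representative transcript is annotated as one with a retained intron. Their protein-coding transcripts held 97.9%, 92.4%, 99.1% and 98.0% of its counts, since reads on shared exons were counted on both. Cxcl12 was spread more widely. Its 2 shortest transcripts had 6, 18 and 10 and 5, 18 and 9 counts in TβRII-/- libraries with H2O2, and 0 in untreated TβRII-/- libraries.

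The cells carried some but not all proximal tubule markers. Of 16 markers 11 were tested; Lrp2 (megalin) had 17280 normalized counts on average in untreated TβRII flox/flox and 11016 in untreated TβRII-/- PT cells, while Slc22a6 and Slc13a3 had none and Slc34a1 and Hnf4a at most 2 counts in a library. In TβRII-/- PT cells 7 of the 11 were called lower untreated and 7 with H2O2, beside 11.8% and 13.4% of all genes, and none higher. Slc5a2 and Ggt1, called lower in both media, passed the filter through the TβRII flox/flox libraries, so their calls are not independent of the filter. Of 14 leukocyte markers, 7 had no counts, including Adgre1, Tyrobp and Cd3e, and Ptprc had at most 6 in a library. The 1 tested, Cd68, was higher in TβRII-/- PT cells (log2 fold change 0.78 and 0.82), and the list's summed normalized counts were 142 to 148 in untreated TβRII flox/flox and 231 to 259 in untreated TβRII-/- libraries, with 145 to 153 and 225 to 279 with H2O2. Pecam1 had at most 1 count, and the sums over 7 endothelial markers (131 to 141, 472 to 594, 24.8 to 31.5 and 50.3 to 70.6) were mostly Kdr. The sums over 7 fibroblast and mural markers were 53.8 to 67.3, 16.5 to 29.3, 75.4 to 97.4 and 40.6 to 50.7, in the same order, and those over 8 podocyte and distal tubule markers did not pass 17.9; the part of these markers in the results was not tested. In bulk RNA, fewer cells that express a gene and less RNA per cell cannot be told apart.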

How the data were processed

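The study's methods state that fastp trimmed the reads, STAR mapped them on GRCm38.p6 (GENCODE M23 annotation), and featureCounts did the counting. The deposited values are raw whole-number counts for each transcript, and a read shared by transcripts was counted on each. Identifiers of 104820 out of 106332 transcripts occurred in GENCODE M39, giving 25514 genes; the other 1512 held 1.22% to 1.28% of the counts and were left out. Each gene was represented by its transcript with the highest total, and libraries then summed to between 15870155 and 20857618 counts. The tests used edgeR 4.0.16 under R 4.3.3 (TMM, filterByExpr, glmQLFit and glmQLFTest on a mean per group), which was tested on simulated data. The simulation left out genes with total counts as low as those of Cxcl2, Cxcl12 and Ccl7, so it does not cover them. Normalized counts were scaled to the mean effective library size, 17351835. The interaction was called on the adjusted p alone. Ratios of summed counts have exact conditional binomial intervals. Similarity between genes was measured by Pearson's r. Promoter sequences and coordinates are from RefSeq on GRCm38.p6.

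The members, the gene lists, the motifs and the tests were chosen with earlier results of these data known. From each other list the text names up to 3 called genes with the highest mean, called neighbours of a member in its chemokine cluster, and for each member the most similar gene. Alternatives were DESeq2 1.42.0, its size factors in edgeR, no filter, a replicate block, only the groups compared, sums over transcripts, other limits and leaving out each library; protein-coding transcripts were added after the data were seen. Replicates differed by more than sampling noise (chi-square per gene 3.64 to 12.7). Some items of the lists are not reported here.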

Additional observations from a re-analysis of the deposited data

Results flagged for a closer look

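For 5 named genes the effect of H2O2 in serum-free medium differed between the genotypes by the interaction test in edgeR (adjusted p under 0.05). For Cxcl1 the effect in TβRII-/- PT cells minus that in TβRII flox/flox PT cells was 0.54 on the log2 scale (SE 0.12, edgeR adjusted p = 0.00268). The level of Cxcl1 was lower with H2O2 in both genotypes, with log2 changes of -1.11 in TβRII flox/flox and -0.57 in TβRII-/- PT cells. For Cx3cl1 the difference was -0.86 (SE 0.12, edgeR adjusted p = 9.04e-06), between rises of 1.47 and 0.61. For Ccl17 it was -1.75 (SE 0.18, edgeR adjusted p = 4.32e-08), with changes of 0.62 and -1.13 in opposite directions.

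Among the genes of the other lists, the difference was -0.39 for Ifngr2 (SE 0.09, edgeR adjusted p = 0.00300) and 0.55 for Zfp36l1 (SE 0.09, adjusted p = 4.51e-05). In this test 10.2% of all genes passed the same limit. The genotypes were 2 cell lines, and no cause of these differences was tested.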

How the results depend on the processing

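Of 1243 results recomputed under the alternatives, 1191 kept their direction and their side of the limits, 26 were no longer past them, 7 newly passed and 19 changed sign. Under the study's limits (unadjusted p of 0.01 and a fold of 1.5) the number of members with different H2O2 effects was 1 in place of 2, since the difference of Cxcl1 is under the fold limit. The numbers of members called ranged, without each library in turn, from 6 to 7 and from 8 to 9 between genotypes untreated and with H2O2. They ranged from 5 to 6 and from 4 to 5 for H2O2 in TβRII flox/flox and TβRII-/- PT cells, and from 2 to 3 for the interaction. Over all alternatives, other limits included, the ranges in the same order were 5 to 8, 8 to 9, 5 to 7, 4 to 7 and 1 to 3.

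The sign changes concerned differences that did not pass in the first place. Without a library, the genotype difference of untreated Ccl20 ranged from -0.0051 to 0.40 and the H2O2 change of Cxcl12 in TβRII flox/flox PT cells from -1.97 to 4.19. The interaction ranged from -0.15 to 0.013 for Ccl2, -1.13 to 0.29 for Cxcl2, -0.089 to 0.15 for Cxcl10 and -2.01 to 4.14 for Cxcl12, for which it was 0.0048 with no filter and 0.95 on sums over transcripts. Low counts limit Cxcl2, Cxcl12 and Ccl7. Without the filter Ccl7 had a log2 change of 1.66 with H2O2 in TβRII flox/flox PT cells (edgeR adjusted p = 0.0477) and of -1.22 between genotypes with H2O2 (0.0873). In fits where Ccl7 passed the filter, the latter was called with only the groups compared (-1.24, edgeR adjusted p = 0.0476), without TβRII flox/flox H2O2 replicate 3 (-1.53, 0.0489) and without TβRII-/- H2O2 replicate 1 (-2.21, 0.0175), and not without TβRII-/- H2O2 replicate 2 (-1.13, 0.177) or 3 (-0.72, 0.309).

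Same-numbered replicates did not deviate together (r from -0.10 to 0.06 over 18 pairs of libraries). No pairing by number was thus seen, though these values cannot exclude one. With the number as a replicate block the calls among the members numbered 7, 8, 6, 5 and 2, as without it, and the interaction was 0.54 for Cxcl1 (edgeR adjusted p = 0.00432) and -0.86 for Cx3cl1 (1.50e-05).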
